A study of Rattus norvegicus with 24 samples.

Results

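MiR-221-3p and miR-222-3p are mature microRNAs (miRNAs) of vascular and blood cells that were read here in rat serum. They were taken by name from the deposited tables and are 2 of the 753 miRNA names listed there, each with 1 locus. Both passed the filter on low counts, as did 136 of the 753 names in all. The serum came from Wistar Kyoto rats, all male, and each rat gave 1 small RNA library in a crossed design of diet and inhaled gas. From 4 weeks of age and for 8 weeks, the rats ate either a diet with fish oil at 6% of its weight or normal chow. They then breathed 0.8 ppm ozone or filtered air for 4 h on each of 2 days. The groups are fish oil ozone (5 libraries analysed), fish oil air (6), normal ozone (6) and normal air (6). The labels list 24 rats. For fish oil ozone 2, no counts were among the data used here. Fish oil and any other difference between the 2 diets cannot be told apart.

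MiRNAs pair with messenger RNAs mainly through their seed, the stretch near the 5′ end, and lower the output of the messages they match. MiR-221 and miR-222 are made from neighbouring hairpins on the X chromosome that are usually transcribed together. In rat vascular smooth muscle cells they act on Cdkn1b and Cdkn1c, inhibitors of the cell cycle, and favour growth after injury of the vessel wall. In human endothelial cells and blood progenitors they lower KIT, the receptor for stem cell factor, and restrain angiogenesis and red cell formation. Neither is confined to vessels, and serum miRNAs come from many cells. In serum, a change in the number of releasing cells and a change in the RNA that each releases cannot be told apart.

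The mature strands are shown because their common start and different ends bear on how far reads of the members can be separated. Seed bases 2 to 8 are in capitals, and the sequences are those of RefSeq on the assembly GRCr8.
rno-miR-221-3p: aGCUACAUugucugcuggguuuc
rno-miR-222-3p: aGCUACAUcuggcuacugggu
The first 8 bases are the same in both, and without a gap 11 of the 21 positions that they share match. After the seed, the longest run found in both has 6 bases. Among 693 rat mature names in the sequence table, only these 2 hold the seed GCUACAU. The opposite strands of the same hairpins have different seeds, again in capitals.
rno-miR-221-5p: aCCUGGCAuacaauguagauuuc
rno-miR-222-5p: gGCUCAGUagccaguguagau

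The hairpins show where each mature strand lies, here with the 3p strand in capitals.
Mir221: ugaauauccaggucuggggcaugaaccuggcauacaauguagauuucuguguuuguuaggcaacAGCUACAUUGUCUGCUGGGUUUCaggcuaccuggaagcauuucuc
Mir222: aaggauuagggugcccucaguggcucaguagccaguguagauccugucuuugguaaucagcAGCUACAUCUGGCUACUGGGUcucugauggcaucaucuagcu
In GRCr8 both lie on the plus strand of chromosome X, Mir221 at chrX:6023182-6023290 and Mir222 at chrX:6022621-6022723. In the deposited table, which is on the build rn5, miR-221-3p is listed at X, 4475359 to 4475382, and miR-222-3p at X, 4474795 to 4474816. Each rn5 interval is as long as the mature strand when its stop is taken as outside the strand. The starts of the 3p strands are 564 bases apart in both builds. The nearest other miRNA locus in the table on X, that of miR-532-5p, lies 12420 kb away.

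Only the 3p strands were seen. MiR-221-5p and miR-222-5p had 0 counts in all 23 libraries, whereas miR-221-3p had 4124 counts in total and miR-222-3p had 171. Against a floor of 3 counts over all libraries together, which is 2.58 counts per 1000000 miRNA counts (CPM), the 3p strand was at least 1375-fold higher than the 5p strand for miR-221 and at least 57-fold higher for miR-222. The 3p strands themselves differed 24.1-fold in total counts. Different strands can enter a library with unequal efficiency, so this compares read numbers, not molecules.

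The members stood on unequal ground for any comparison. Libraries held 23276 to 94264 miRNA counts. On the scale of trimmed mean of M values (TMM), which adjusts CPM for the makeup of each library, miR-221-3p averaged 3711 ± 965 CPM (SD, n = 23) and was 37th of the 136 tested miRNAs. MiR-222-3p averaged 150 ± 106 CPM and was 134th of 136. A count of 3 corresponds to 28.3 to 117 CPM on that scale, depending on the library, and 5 libraries had fewer than 3 counts of miR-222-3p. MiR-221-3p had a mean of 179 counts, for which counting alone gives a coefficient of variation of 7.47%. At the mean of 7.43 counts of miR-222-3p counting alone gives 36.7%. Beyond counting, the fitted variation between rats was 26.8% for miR-221-3p, the 16th lowest of 136, and 48.0% for miR-222-3p, against a median of 34.7%.

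Depth and makeup of the libraries moved with diet, and this bears on every value below. Fish oil libraries held 33302 ± 7385 miRNA counts in ozone (n = 5) and 37262 ± 11332 in air, against 63357 ± 20129 in normal ozone and 65638 ± 15675 in normal air (SD, n = 6 each). The authors' second table gives RPM, reads per 1000000 of a larger read total that is not stated. Dividing counts by RPM gives that total, called the implied read total here. MiRNA counts were 0.826 ± 0.335% of it in fish oil ozone and 0.660 ± 0.181% in fish oil air, against 1.56 ± 0.578% in normal ozone and 1.36 ± 0.563% in normal air. A miRNA can therefore be higher per miRNA count and lower per read of the implied total in the same rats.

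Fish oil rats had more miR-221-3p per miRNA count than normal diet rats, and a lower mean of it per read of the implied total. In fish oil ozone, replicates 1, 3, 4, 5 and 6 had 4186, 4471, 4727, 4823 and 3855 CPM of miR-221-3p. In fish oil air, replicates 1 to 6 had 3661, 4057, 2185, 5067, 5617 and 4797 CPM. In normal ozone they had 2675, 4202, 3215, 3305, 3177 and 3023 CPM, and in normal air 3984, 3126, 1758, 2583, 3142 and 3723 CPM. All fish oil ozone libraries lay above the normal ozone mean, and their lowest value was below the highest of normal ozone. In air the spread was wide on both diets, with fish oil air 3 and normal air 3 the lowest of their groups, and the groups overlapped.

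Averaged over air and ozone, miR-221-3p rose with fish oil by 0.45 on the log2 scale, or 1.37-fold (SE 0.16, edgeR quasi-likelihood test, Benjamini-Hochberg adjusted p = 0.0230). Its mean was 4313 ± 906 CPM on fish oil (SD, n = 11) and 3159 ± 651 CPM on the normal diet (n = 12). It was higher in 10 of 11 fish oil rats than the mean of normal rats under the same exposure. The background was high: 36.8% of the 136 miRNAs passed, 19.9% upward, and miR-221-3p was 44th by p-value and 36th by fold. Under TMM scaling the median log2 fold change of all 136 was 0.06. The call was lost when any of 5 libraries was left out: fish oil air 5 (adjusted p = 0.0561), fish oil air 6 (0.0580), normal ozone 1 (0.0629), normal ozone 4 (0.0531) or normal air 5 (0.0619, edgeR for each). It was also lost with all libraries when no low-count filter was used and 440 miRNAs were tested (+0.36, edgeR adjusted p = 0.222).

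When counts were scaled to the implied read total, the log2 fold change of miR-221-3p turned to −0.42 (SE 0.29, edgeR adjusted p = 0.223). The median of all 136 miRNAs was then −0.87, with 0.735% called higher and 51.5% called lower. MiR-221-3p was 36th of 136 by fold under either scaling, so its place among the miRNAs did not move while the whole set shifted. In the authors' RPM it averaged 37.2 ± 18.1 in fish oil ozone (n = 5) and 29.1 ± 9.78 in fish oil air, against 51.0 ± 20.7 in normal ozone and 38.1 ± 15.4 in normal air (SD, n = 6 each). By RPM, 4 of 11 fish oil rats lay above the normal mean of their exposure. What made miRNAs a smaller part of the implied total on fish oil was not tested.

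**Figure D1:**
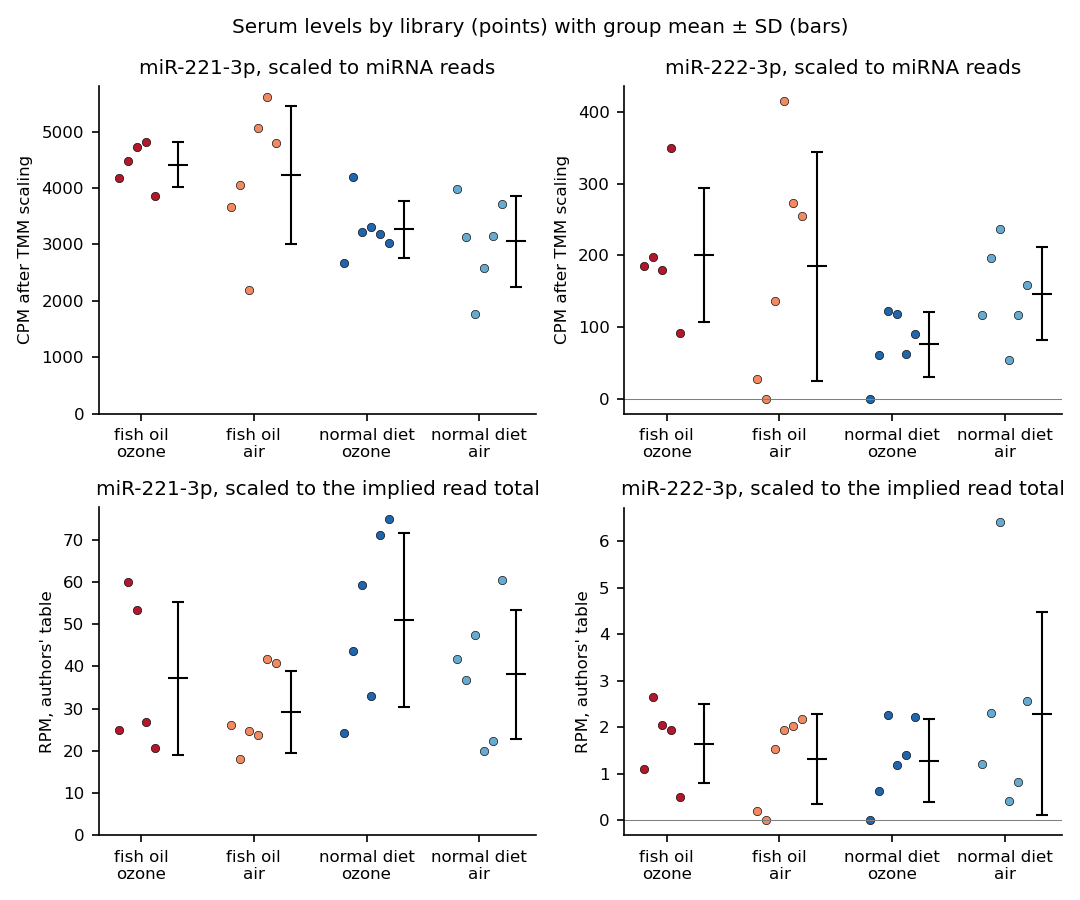
Level of miR-221-3p (left) and miR-222-3p (right) in each library, in CPM after TMM scaling (top) and in the authors' RPM (bottom), by group; points are libraries, bars mean and SD. For miR-221-3p the fish oil means of 4412 CPM in ozone and 4231 CPM in air lie above the normal means of 3266 and 3053 CPM in the top panel, and in the bottom panel the fish oil means of 37.2 and 29.1 RPM lie below the normal means of 51.0 and 38.1 RPM.

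Within a single exposure, fish oil did not move miR-221-3p past the threshold. In air its log2 fold change was +0.47 (SE 0.22, edgeR adjusted p = 0.156), with 5 of 6 fish oil rats above the normal air mean. Of all miRNAs tested in air, 5.88% passed (0.735% higher and 5.15% lower), and 28.7% had an unadjusted p under 0.05. In ozone the log2 fold change was +0.44 (SE 0.23, edgeR adjusted p = 0.171), with 5 of 5 fish oil rats above the normal ozone mean, while 22.8% of all miRNAs passed (12.5% higher and 10.3% lower) and 34.6% had an unadjusted p under 0.05. The sizes were near that of the averaged comparison, which has more libraries per side. In air it did pass when fish oil air 3 was left out (+0.61, edgeR adjusted p = 0.0430) and when counts were scaled to the miRNA total (+0.67, edgeR adjusted p = 0.0407). Under the implied read total the values were −0.38 in air and −0.46 in ozone (edgeR adjusted p = 0.445 and 0.412).

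MiR-222-3p did not pass in any comparison. Its counts in fish oil ozone replicates 1, 3, 4, 5 and 6 were 6, 6, 8, 9 and 3. In fish oil air replicates 1 to 6 had 1, 0, 5, 15, 11 and 16 counts. In normal ozone they had 0, 2, 13, 7, 4 and 5 counts, and in normal air 6, 17, 17, 2, 6 and 12. Every group overlapped every other, and the lone counts of 0, in fish oil air 2 and normal ozone 1, allow up to 129 and 42.3 CPM before TMM scaling at the floor of 3. These limits cover counting error only. In TMM-scaled CPM the means were 201 ± 93.6 in fish oil ozone (n = 5) and 184 ± 159 in fish oil air, against 75.7 ± 45.6 in normal ozone and 146 ± 65.1 in normal air (SD, n = 6 each). In the authors' RPM they were 1.64 ± 0.848 in fish oil ozone (n = 5) and 1.31 ± 0.964 in fish oil air, against 1.28 ± 0.888 in normal ozone and 2.29 ± 2.18 in normal air (SD, n = 6 each), and a library with no count is listed at the offset.

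Averaged over exposures, miR-222-3p had a log2 fold change of +0.82 with fish oil (SE 0.41, edgeR adjusted p = 0.113), with 8 of 11 fish oil rats above the normal mean of their exposure. In ozone it was +1.30 (SE 0.62, edgeR adjusted p = 0.129), with 5 of 5 above the normal ozone mean. In air it was +0.33 (SE 0.54, edgeR adjusted p = 0.748), with 3 of 6 above. With the implied read total these became −0.18, +0.34 and −0.71 (edgeR adjusted p = 0.774, 0.759 and 0.434). With TMM scaling its standard errors were 0.41 to 0.62 in these comparisons, against 0.16 to 0.23 for miR-221-3p.

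Ozone moved neither member past the threshold. Averaged over diets, the log2 fold change with ozone was +0.08 for miR-221-3p (SE 0.16, edgeR adjusted p = 0.955). For miR-222-3p it was −0.45 (SE 0.41, edgeR adjusted p = 0.915). Of the 136 miRNAs, 1 (0.735%) passed for ozone averaged over diets, miR-375-3p, named after its value was seen, and 2.94% had an unadjusted p under 0.05. On the normal diet, miR-222-3p was below the normal air mean in all 6 normal ozone rats, with a log2 fold change of −0.94 (SE 0.57, edgeR adjusted p = 0.939, unadjusted p = 0.110). That was the lowest fold change of the 136 miRNAs in the comparison under both scalings, but its precision at few counts is low and the groups overlapped. On the same diet miR-221-3p had +0.09 (SE 0.22, edgeR adjusted p = 0.939). Under the implied read total the median of all 136 for ozone averaged over diets was +0.23, and the members had +0.38 and −0.28 (edgeR adjusted p = 0.930 for both).

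On fish oil, ozone gave log2 fold changes of +0.06 for miR-221-3p (SE 0.23) and +0.04 for miR-222-3p (SE 0.61, edgeR adjusted p = 0.983 for both). The difference between the ozone effects on the diets, tested as an interaction, was −0.04 for miR-221-3p (SE 0.32, edgeR adjusted p = 0.980). For miR-222-3p it was +0.98 (SE 0.82, edgeR adjusted p = 0.916). By edgeR, 0 of 136 miRNAs passed for ozone on the normal diet, for ozone on fish oil and for the interaction, and 4 (2.94%), 10 (7.35%) and 6 (4.41%) had an unadjusted p under 0.05. DESeq2 called 1, 0 and 0 in the same comparisons.

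**Figure D2:**
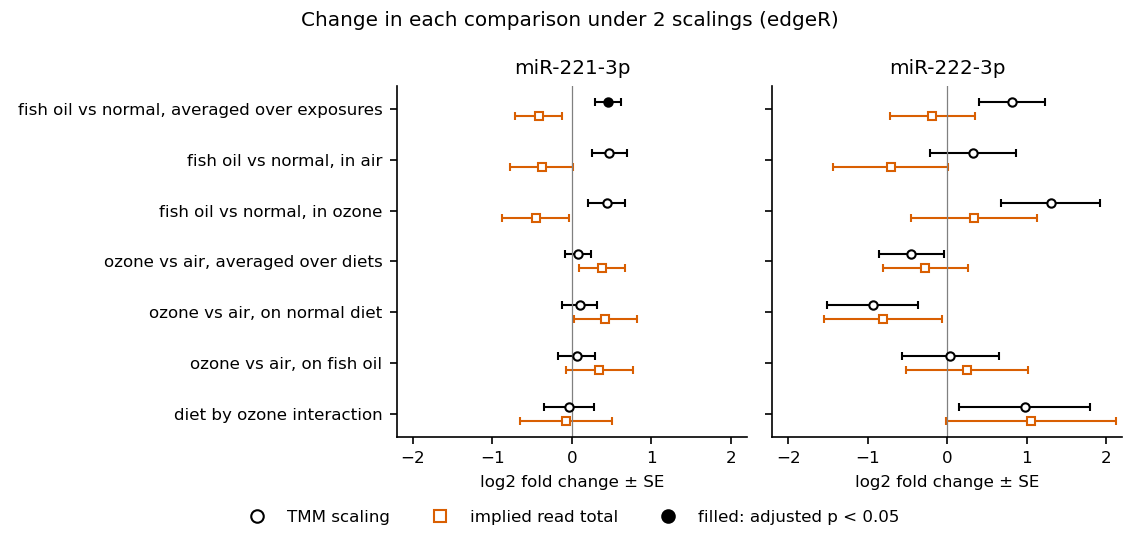
Log2 fold change with SE of miR-221-3p and miR-222-3p in each of the 7 contrasts, with TMM scaling (circles) and scaled to the implied read total (squares); filled symbols have an edgeR adjusted p under 0.05. The only filled symbol is that of miR-221-3p for fish oil averaged over exposures under TMM scaling, at +0.45, and its square lies at −0.42.

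Because the members share a seed, they were also summed and tested as 1 row. For fish oil averaged over exposures the sum had a log2 fold change of +0.41 (SE 0.15, edgeR adjusted p = 0.0310), which turned to −0.42 under the implied read total (edgeR adjusted p = 0.223). This lies below the value of either member because TMM factors were computed anew on 1 row fewer; with the factors of the separate fit it was +0.47 (SE 0.16, edgeR adjusted p = 0.0183). In all 23 fits that left out 1 library the sum passed, with adjusted p from 0.00286 to 0.0491, but with no low-count filter it did not (+0.38, edgeR adjusted p = 0.187). Under air and under ozone alone the sum had +0.43 and +0.39 (edgeR adjusted p = 0.183 for both). For ozone averaged over diets it had +0.06 (edgeR adjusted p = 0.972). MiR-221-3p makes up nearly all of the sum.

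The balance within the pair needs no scaling between libraries, though a number added to low counts makes it depend on depth. MiR-222-3p made up 4.18% of the pooled counts of the pair in fish oil ozone (32 of 765, exact 95% interval 2.88 to 5.85%) and 4.43% in fish oil air (48 of 1083, 3.29 to 5.83%). It made up 2.49% in normal ozone (31 of 1245, 1.70 to 3.52%) and 4.99% in normal air (60 of 1202, 3.83 to 6.38%). These Clopper-Pearson intervals cover counting error only, and the pooled share is weighted by depth. Normal ozone had the lowest share, and the other 3 groups lay close together.

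Over libraries, the log2 ratio of miR-222-3p to miR-221-3p averaged −4.46 ± 0.53 in fish oil ozone (n = 5) and −5.04 ± 1.70 in fish oil air, against −5.67 ± 1.41 in normal ozone and −4.37 ± 0.87 in normal air (SD, n = 6 each, 0.5 added to each count). The difference of fish oil ozone from normal ozone was +1.20 (exact permutation test, two-sided, p = 0.0390, adjusted over 4 comparisons p = 0.108). That of normal ozone from normal air was −1.30 (exact p = 0.0541, adjusted p = 0.108). Neither passed after adjustment with all libraries, and the first did without fish oil ozone 6 (adjusted exact p = 0.0381). Normal ozone 1, with a count of 0 for miR-222-3p, had the lowest ratio. Without it the differences were +0.66 and −0.75. With 5 added to each count they were +0.68 (adjusted exact p = 0.0173) and −0.69 (adjusted exact p = 0.0260). An addition of that size lifts the ratio more in shallower libraries, and miR-221-3p had a mean of 147 counts in fish oil ozone, against 202 in normal ozone, and of 202 in normal ozone, against 190.3 in normal air. What part depth has in those values was not tested. Fish oil air differed from normal air by −0.67 and fish oil ozone from fish oil air by +0.57 (adjusted exact p = 0.537 for both). Averaged over exposures, the ratio on fish oil differed from that on the normal diet by +0.27 (permutation over all exact splits within exposure, p = 0.642).

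**Figure D3:**
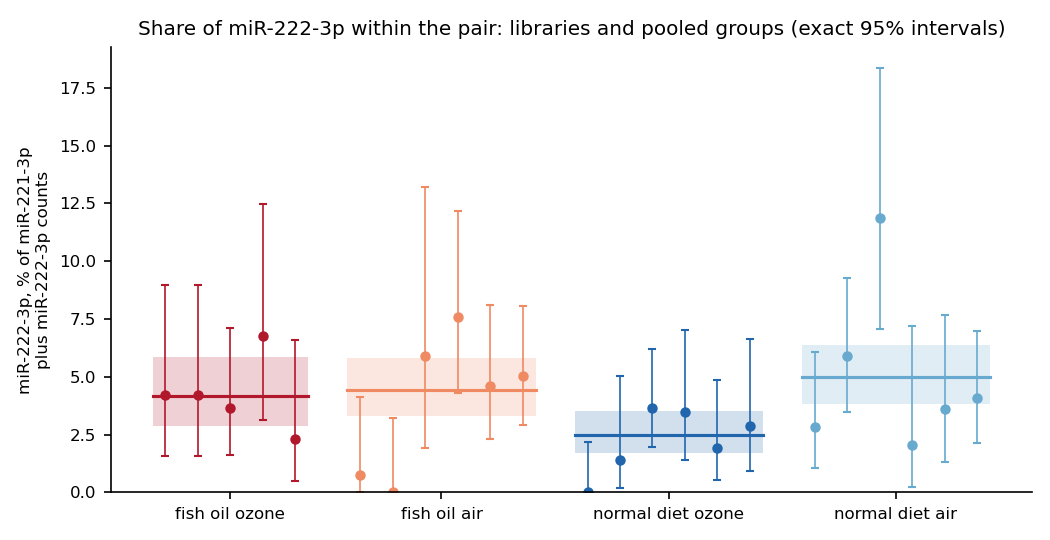
MiR-222-3p as a percent of the counts of miR-221-3p and miR-222-3p together, by library (points) and pooled by group with the exact 95% interval (bars). The pooled share is 2.49% in normal ozone and 4.18 to 4.99% in the other groups, and single libraries run from 0% to 11.9% in normal air 3.

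Other miRNAs of the vessel wall give the setting for the members' diet difference. The lists were chosen with earlier results of these data known, and each is given for fish oil averaged over exposures, where 36.8% of all tested miRNAs passed. Both tested miRNAs of endothelium rose: miR-126a-3p, which keeps vessels intact, by 1.06 (SE 0.33, edgeR adjusted p = 0.0136), and its opposite strand miR-126a-5p by 0.64 (SE 0.21, adjusted p = 0.0150). Of 4 smooth muscle miRNAs, 2 passed the filter and both rose. MiR-143-3p gained 1.07 (SE 0.23, edgeR adjusted p = 0.000913) and miR-145-5p gained 1.22 (SE 0.34, adjusted p = 0.00585); both are known for keeping smooth muscle in its contractile state. The median log2 fold change was 0.85 for endothelium and 1.14 for smooth muscle, against 0.06 for all 136. Under the implied read total the medians were −0.15 and 0.15, against −0.87 for all, where miR-126a-3p was at −0.0022 and miR-126a-5p at −0.30 (edgeR adjusted p = 0.997 and 0.494). As plain shares of the miRNA counts, before TMM scaling, summed smooth muscle miRNAs ran from 206858 to 340922 CPM in fish oil ozone and 154150 to 357706 CPM in fish oil air, against 86986 to 163462 CPM in normal ozone and 82396 to 220907 CPM in normal air. The endothelial sum ran from 15352 to 35924 CPM and 7274 to 26105 CPM in fish oil ozone and fish oil air, against 9781 to 29249 CPM and 5268 to 16801 CPM in normal ozone and normal air. In ozone the smooth muscle sums of the diets did not overlap, and in air they did. The endothelial sums overlapped under both exposures. How many of all tested miRNAs separate the diets was not counted. For fish oil in ozone, 22.8% of all 136 miRNAs passed, 12.5% higher. The smooth muscle median in that comparison was 1.35 with TMM scaling, against 0.0009 for all 136. Under the implied read total it was 0.31, against −0.96 for all.

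Among 17 tested miRNAs with other known roles in smooth muscle growth or angiogenesis, 4 rose, 2 fell and 11 did not pass. Of all 136 tested miRNAs 19.9% rose and 16.9% fell, so the list as a whole was near the full set. MiR-10b-5p, at a mean of 8.48 counts, rose by 1.41 (SE 0.34, edgeR adjusted p = 0.00175). The others that rose were miR-23b-3p by 0.70 (SE 0.23, edgeR adjusted p = 0.0165), miR-27b-3p by 0.61 (SE 0.16, adjusted p = 0.00309) and miR-100-5p by 0.61 (SE 0.23, adjusted p = 0.0320). MiR-23b and miR-27b are processed from 1 cluster and act in endothelial sprouting. MiR-92a-3p, known to restrain angiogenesis, fell by 1.09 (SE 0.23, edgeR adjusted p = 0.000656), and miR-26a-5p fell by 0.37 (SE 0.13, adjusted p = 0.0270). The list had a median of 0.25 and a range from −1.09 to 1.41, and its median was −0.68 under the implied read total, where miR-23b-3p, miR-27b-3p and miR-100-5p turned to −0.29, −0.34 and −0.41. MiR-221-3p at +0.45 and miR-222-3p at +0.82 lay inside that range and below both smooth muscle miRNAs.

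**Figure D4:**
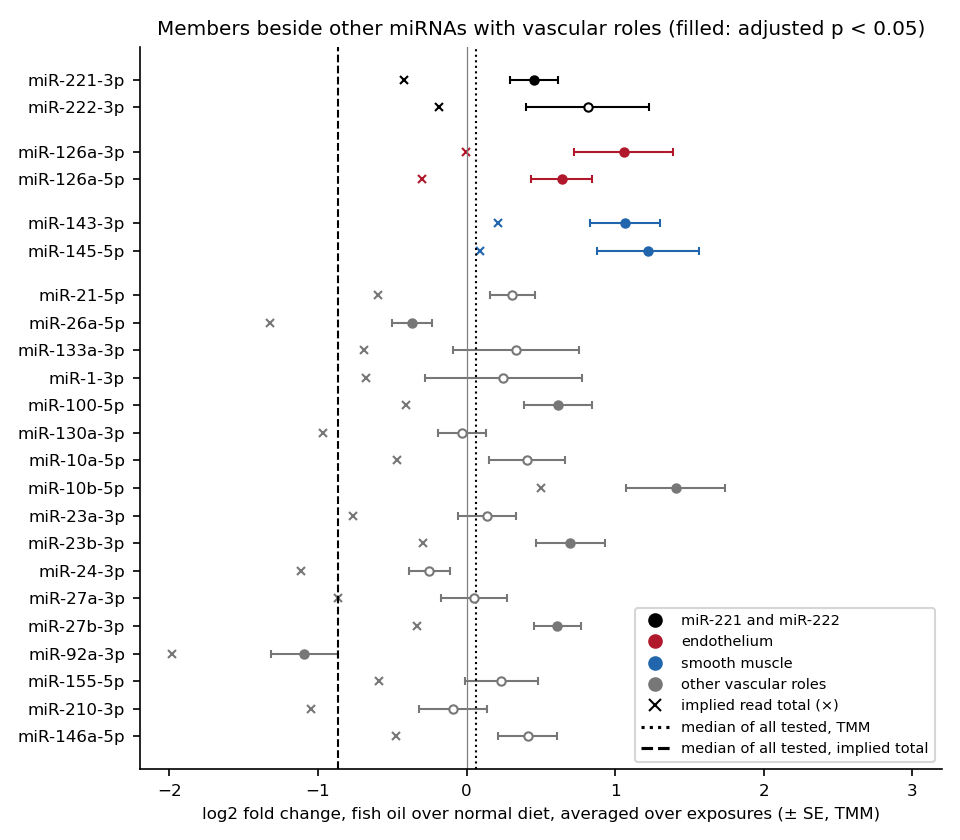
Log2 fold change with fish oil, averaged over exposures, of miR-221-3p and miR-222-3p and of 21 other tested miRNAs with vascular roles, with TMM scaling (circles, SE) and with the implied read total (crosses); lines mark the medians of all 136 tested miRNAs, 0.06 and −0.87. The members lie above the median of all miRNAs on both scales, and below miR-143-3p and miR-145-5p on both.

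Some markers of blood cells passed in the same comparison, where 36.8% of all 136 miRNAs passed, 19.9% higher and 16.9% lower. In the erythrocyte list 2 of 4 tested miRNAs rose, miR-144-5p by 1.32 (SE 0.28, edgeR adjusted p = 0.000656) and miR-144-3p by 0.98 (SE 0.37, adjusted p = 0.0322). Another 2 did not pass, and the lowest value was 0.06. MiR-144-5p had a mean of 10.3 counts. The list had a median of 0.78, which became −0.09 under the implied read total, where all 136 had −0.87. In the platelet list 3 of 5 fell: miR-191a-5p by 1.54 (SE 0.22, edgeR adjusted p = 7.84e-06), miR-425-5p by 0.74 (SE 0.17, edgeR adjusted p = 0.00146) and miR-223-3p by 0.80 (SE 0.26, adjusted p = 0.0165). MiR-126a-3p is in that list as well and rose, and 1 did not pass. The platelet median was −0.74, and −1.65 under the implied read total. Before TMM scaling, summed platelet miRNAs ran from 45745 to 157104 CPM in fish oil ozone and from 50490 to 166137 CPM in fish oil air, against 217416 to 319572 CPM in normal ozone and 199244 to 327330 CPM in normal air. The diets did not overlap in that sum, and how many of all tested miRNAs separate the diets in this way was not counted. In the normal diet groups the leukocyte sum, which holds miR-223-3p, was at most 17738 CPM. The endothelial sum, which holds miR-126a-3p, was at most 29249 CPM there. Most of the platelet sum on the normal diet thus came from its other members. The part of platelet markers in the difference of miR-221-3p was not tested.

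On the same scale, summed erythrocyte miRNAs ran from 10123 to 23290 CPM in fish oil ozone and 14333 to 33193 CPM in fish oil air, against 9588 to 22306 CPM in normal ozone and 10249 to 20197 CPM in normal air. The erythrocyte index, log2 of miR-451-5p over miR-23a-3p, which goes up when red cells break, was −2.19 ± 1.29 in fish oil ozone (n = 5) and −1.88 ± 0.643 in fish oil air, against −2.79 ± 1.07 in normal ozone and −2.14 ± 0.559 in normal air (SD, n = 6 each). With that index as a covariate, miR-221-3p kept its call for fish oil averaged over exposures (log2 fold change +0.45, SE 0.16, edgeR adjusted p = 0.0287). That fit used TMM scaling, under which the call was lost when any of 5 libraries was left out. What part red cells have in the difference of miR-221-3p was not tested. For fish oil averaged over exposures 16.9% of all 136 miRNAs fell. Of 5 tested leukocyte miRNAs 1 fell, miR-223-3p as above, and 4 did not pass. Of 3 liver miRNAs miR-192-5p fell by 0.62 (SE 0.19, edgeR adjusted p = 0.0118) and 2 did not pass. The medians were 0.22 for leukocytes and −0.62 for liver, and −0.73 and −1.53 under the implied read total. Of the listed markers miR-486 had no entry under that name, and no other, also among those below the filter, was at 0 in all libraries.

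Across the 23 libraries the members were not each other's nearest match. Their log2 CPM had a Spearman rho of 0.467, and of 0.353 after each group's mean was subtracted. By this measure miR-222-3p was 19th among the 135 other miRNAs for miR-221-3p. Most like miR-221-3p were miR-10b-5p (rho 0.753), miR-203a-3p (0.739), miR-181a-5p (0.697), miR-103-3p (0.663) and miR-144-5p (0.626). Most like miR-222-3p were miR-200a-3p (0.706), miR-203a-3p (0.666), miR-29c-3p with a rho of 0.626, miR-27b-3p (0.621) and, last of the 5, miR-29a-3p (0.615). MiR-203a-3p is in both sets.

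These values describe the libraries and carry no test, since the points share depth, scaling and diet. Centred on group means, the rho with miR-221-3p was 0.248 for miR-10b-5p and 0.650 for miR-203a-3p. The median rho over all 135 miRNAs was 0.111 for miR-221-3p and −0.00296 for miR-222-3p. Under the implied read total these medians became 0.664 and 0.508, and the rho between the members became 0.719. With that scaling 1 of the 5 miRNAs most like miR-221-3p stayed in its set, as did 4 of the 5 for miR-222-3p. MiR-10b-5p and miR-144-5p, with means of 8.48 and 10.3 counts, then ranked 123rd and 97th for miR-221-3p.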

How the data were processed

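Serum small RNA of 23 rats was compared by diet and exposure. The expected count table deposited by the authors gives reads per mature miRNA locus, and 50 of its 832 loci hold fractions, none of them a member. The deposited RPM table equals these counts, summed by name, divided by 1 unstated total per library, plus 0.0001, to within 0.0401 reads. Per the labels, 10 ng of RNA from 100 µl of serum entered each library, read for 50 cycles. Per the submitters' processing notes, bcl2fastq, Partek, Bowtie 1.0.0 and rn5 were used. How reads matching several names were assigned is not given in the sources used here.

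Counts were summed by name and rounded. Names passing filterByExpr (minimum count 10, total 15) were tested over all 4 groups with edgeR 4.0.16 (robust quasi-likelihood F test, two-sided, TMM, 1 mean per group) in R 4.3.3, adjusted by Benjamini-Hochberg over 136 miRNAs at 0.05. "Rose" and "fell" mark results past that threshold. The test was checked on simulated data. The pair ratio was tested by exact permutation over libraries. Alternatives were other scalings, DESeq2 1.42.0, limma 3.58.1 on log2(RPM + 1) or log2(RPM + 10), no filter, and leaving out each library. Named miRNAs were the members, their other strands, the 5 most like each by Spearman rho, and list members that passed, up to 6 per list. Members and lists were chosen with earlier results of these data known. Replicate numbers follow accession order and animal numbers run in blocks by group, so a batch that followed those blocks and the groups cannot be told apart. Since PCR copies of a molecule cannot be recognised without molecular identifiers, intervals and floors cover counting error only.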

Additional observations from a re-analysis of the deposited data

Results flagged for a closer look

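Of 20 groups of values, 2 held a library far from the others of its group. The rule flags about 1 in 20 groups of independent normal values, and the groups here share libraries, so that rate need not hold. The log2 ratio of miR-222-3p to miR-221-3p was −8.40 in normal ozone 1, against −5.80 in the nearest library of that group; this library had 0 counts of miR-222-3p and 168 of miR-221-3p. In the authors' RPM, miR-222-3p was 6.41 in normal air 3, against 2.56 in the nearest library of that group. Normal air 3 had 17 counts of miR-222-3p and 126 of miR-221-3p, and a miRNA share of 2.34% of the implied read total, the highest of its group.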

How the results depend on the processing

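No paired analysis was possible because replicate numbers were given in accession order and animal numbers pair no rats. Of the 204 alternative log2 fold changes that keep all libraries, 166 kept direction and side of the threshold, 34 reversed, 2 gained a call and 2 lost it. With the miRNA total as library size, fish oil in air gave +0.67 for miR-221-3p and +0.66 for the sum (edgeR adjusted p = 0.0407 and 0.0404), and ozone on fish oil gave −0.031, −0.090 and −0.031 for miR-221-3p, miR-222-3p and the sum. Without the 5 most abundant miRNAs in that total these ozone values were −0.011, −0.069 and −0.011. For fish oil averaged over exposures, then in air and in ozone, miR-221-3p had −0.42, −0.38 and −0.46 under the implied read total, −0.40, −0.33 and −0.47 by limma on log2(RPM + 1), and −0.32, −0.27 and −0.38 on log2(RPM + 10). The sum had −0.42, −0.40 and −0.43, then −0.39, −0.35 and −0.44, then −0.32, −0.28 and −0.36. MiR-222-3p, averaged and in air, had −0.18 and −0.71, then −0.086 and −0.42, then −0.031 and −0.11. With no low-count filter, 440 miRNAs entered and fish oil averaged gave +0.36 for miR-221-3p (edgeR adjusted p = 0.222) and +0.38 for the sum (0.187). The interaction of the sum, −0.04 in the main analysis, was +0.022 with no filter, +0.011 with relative log expression, +0.011 with DESeq2 and +0.00142 with TMM factors of the separate fit.

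For the pair ratio, adding 5 counts gave +0.68 for fish oil in ozone and −0.69 for ozone on the normal diet, both past the threshold on values that also depend on depth, and differences of medians gave +0.32 for fish oil in air and −0.14 for ozone on fish oil. Of the 5 miRNAs most like miR-221-3p, 1 was shared under the implied read total. The cause of these differences was not tested. Leaving out 1 library, miR-221-3p ranged from 0.38 to 0.52 for fish oil averaged, 0.31 to 0.61 for fish oil in air, −0.051 to 0.23 for ozone on the normal diet, −0.067 to 0.18 for ozone on fish oil and −0.19 to 0.15 for the interaction. MiR-222-3p ranged from −0.051 to 0.55 for fish oil in air and −0.20 to 0.38 for ozone on fish oil, and fell below the filter in 2 of the 23 fits. The sum ranged from 0.31 to 0.60, −0.076 to 0.14, −0.060 to 0.19 and −0.13 to 0.16 for fish oil in air, ozone on each diet (normal, then fish oil) and the interaction. The ratio ranged from 0.66 to 1.41 for fish oil in ozone, with a call gained without fish oil ozone 6 (adjusted exact p = 0.0381), and −0.0055 to 0.55 for fish oil averaged.

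Against 50 miRNAs called for fish oil averaged, limma called 76 and 67 at the 2 pseudocounts. Fish oil in air called 8, against 15 by DESeq2, 14 with the miRNA total, 15 without the 5 most abundant, 38 with the implied total, 30 and 28 by limma and 12 with no filter. Fish oil in ozone called 31, and limma 52 and 48, all lower. MiR-222-3p is limited by depth: 5 libraries had fewer than 3 counts.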
